A study of Mus musculus and blank sample with 91 samples.

Results

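The genera *Coprococcus*, *Anaerostipes*, *Marvinbryantia* and *Stomatobaculum* were followed in the feces of naïve, CFA and EAE mice, as read counts of amplicon sequence variants (ASVs, the distinct sequences inferred from reads of 16S rRNA regions V3 and V4). Members were the ASVs that the deposited taxonomy assigns to any of these names, 82 of 2295 ASVs, and their counts were summed by genus in each sample. *Coprococcus* had 45 ASVs, *Anaerostipes* 20, *Marvinbryantia* 9 and *Stomatobaculum* 8. These are 4 of 73 genera and belong to the family Lachnospiraceae, which had 911 ASVs in all and 19 other genera. The rule selects by name alone and uses no abundance, but the genera were chosen with earlier results on these samples known, so the tests below describe these samples and are no independent evidence.

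All mice were female C57BL/6 by the labels (C57BL/6J in the study's methods), bought at 8 weeks of age and kept on standard food. EAE (experimental autoimmune encephalomyelitis, a model of multiple sclerosis) was induced with 50 µg of a myelin oligodendrocyte glycoprotein (MOG) peptide, residues 35 to 55, in complete Freund's adjuvant (CFA) under the skin, plus 250 ng of pertussis toxin on days 0 and 2. CFA mice are described as given the adjuvant only, and naïve mice were untreated. Whether CFA mice also had the toxin is not stated outright, so EAE and CFA mice differed in the peptide and, if they did not have it, in the toxin too. Feces were taken 2 days before immunization (-2 dpi) and at 8, 14, 19 and 29 dpi, and 88 samples had counts (30 naïve, 29 CFA and 29 EAE, or 5 to 6 per treatment and day). Mice were housed 2 to 3 per cage and treatments were assigned by cage. The labels give no cage numbers, so cage and treatment cannot be told apart. Naïve and CFA mice kept their numbers throughout. EAE mice are numbered 550 to 557 in the labels at -2 and 8 dpi and 588 to 595 later, and the deposited sample table ties both series to the same 6 subjects (550 and 588 are one subject, 551 and 589 another).

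Lachnospiraceae are strict anaerobes of the Clostridia that ferment fiber in the large intestine. Many of them make short-chain fatty acids, and butyrate in particular feeds the colonic epithelium and is known to favour regulatory T cells. *Coprococcus* and *Anaerostipes* are known as butyrate producers, and *Anaerostipes* species can make butyrate from lactate and acetate released by other bacteria. *Marvinbryantia* was described as an acetogen that uses formate. *Stomatobaculum longum*, the only species name given to any of these ASVs, was described from human dental plaque.

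Totals ranged from 9202 to 102437 counts per sample with a median of 64586. Fewer than 30 ASVs were held by 3 EAE samples, those of mice 551 and 555 at 8 dpi and of mouse 595 at 19 dpi. Values are percents of a sample's counts. They are relative, so fewer cells of a genus and more of all others cannot be told apart. By counting error alone, a count of 0 allows a share of up to 3 counts of the total, which is at most 0.0326% in any sample. The smallest shares listed were far above that for *Anaerostipes* (0.505%), *Stomatobaculum* (0.485%) and *Marvinbryantia* (0.310%), and 0.0341% for *Coprococcus*. The smallest count listed for any ASV was 88, 320, 2 and 19 in the same order. Whether a 0 also stands for reads left out when ASVs were inferred was not tested, so a 0 means not listed rather than absent. No fold change is given against a group at 0.

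Groups were compared with the quasi-likelihood test of edgeR over all 65 genera with counts in at least 3 samples, and beside it with two-sided exact permutation tests of mean percents, both adjusted by Benjamini-Hochberg over all genera tested at a threshold of 0.05. With 6 mice against 6, the exact test cannot go below p = 0.00216. The edgeR calls followed groups that were entirely at 0: 91 of 98 calls over all genera and comparisons, and all 17 calls of the 4 genera, set a group with counts against a group with none. Where exactly 1 of the groups was at 0, 36.4% of tests were called, against 1.17% where both had counts. A call of this kind says that a genus was listed in some mice of a group and in none of another, and it can rest on 1 mouse.

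Across all 88 samples, *Anaerostipes* held a mean of 2.15% of counts (rank 10 of 73 genera), *Coprococcus* 0.885% (rank 21), *Stomatobaculum* 0.389% (rank 34) and *Marvinbryantia* 0.0545% (rank 52). *Coprococcus* was present in 56 samples, *Anaerostipes* in 46, *Stomatobaculum* in 25 and *Marvinbryantia* in 8. All 29 CFA samples held at least 1 of the genera and of these 16 held 3 and 1 held all 4. Among naïve samples 11 held none, 13 held 1 and 6 held 2. Among EAE samples 5 held none, 13 held 1, 10 held 2 and 1 held 3.

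**Figure D1:**
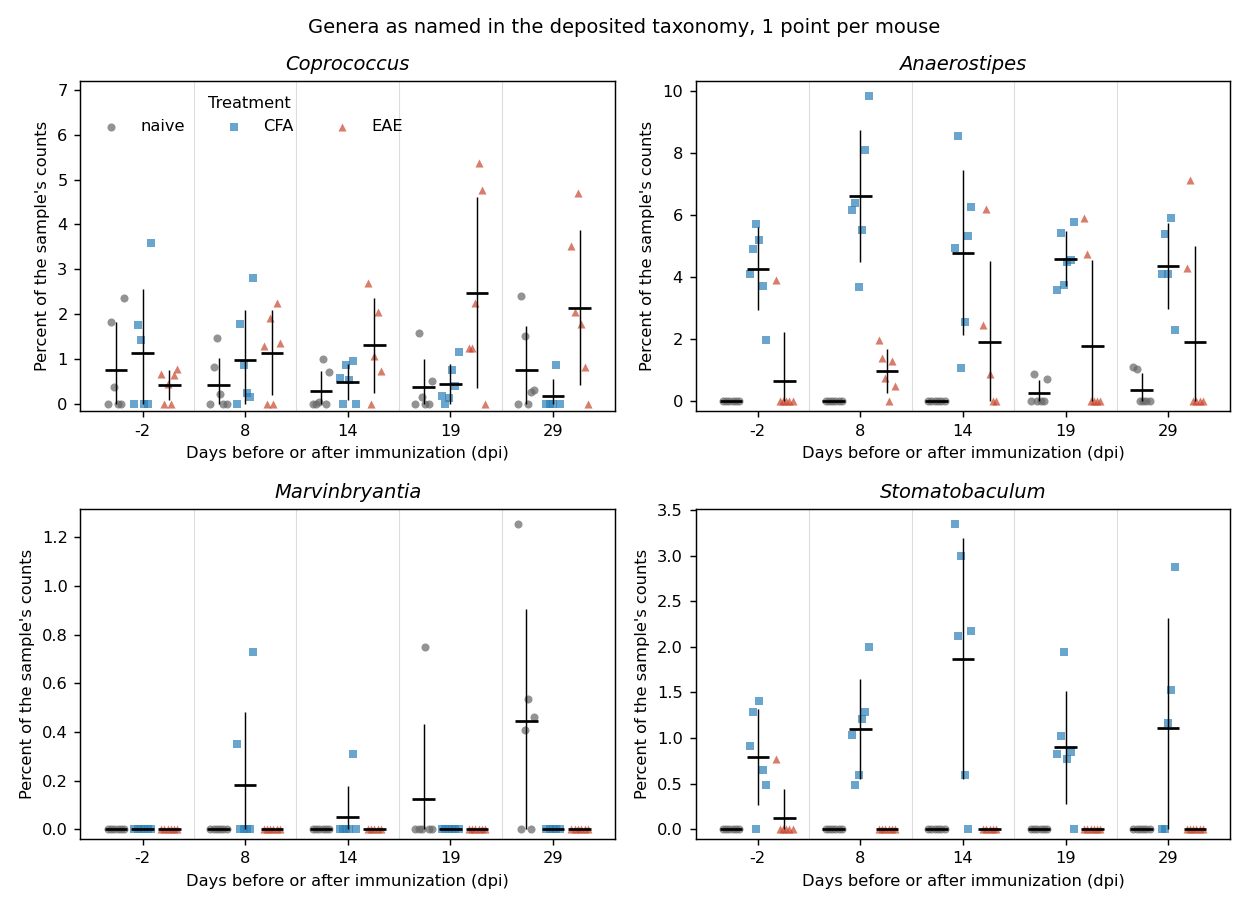
Percent of a sample's counts (y axis) by day (x axis) for each genus as named in the deposited taxonomy, 1 point per mouse; horizontal bars are group means and vertical lines 1 SD, cut at 0. *Anaerostipes* and *Stomatobaculum* were high in CFA mice from -2 dpi on, and *Coprococcus* reached its highest value, 5.37%, in an EAE mouse at 19 dpi.

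The ASVs still carry their primers, and the degenerate primer bases split a single organism into several ASVs. With both primers removed, the 82 ASVs came down to 10 distinct sequences of 402 or 403 bases. They are numbered within a genus by their counts, and their letters are not printed. *Coprococcus* had 5 sequences, *Marvinbryantia* 3, and *Anaerostipes* and *Stomatobaculum* 1 each that carried the genus name alone or in most counts. *Coprococcus* sequences 1 and 2 were 91.3% identical to each other, and *Coprococcus* sequence 1 was 91.0% identical to *Anaerostipes* sequence 1 and 89.6% to *Stomatobaculum* sequence 1, and *Anaerostipes* sequence 1 was 94.0% identical to *Coprococcus* sequence 3. Identities between the genera in this region thus overlapped those within *Coprococcus*.

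The names did not follow the sequences throughout. *Coprococcus* sequence 1 was held by 16 ASVs, of which 13 (33234 counts) are named *Coprococcus* and 3 (6384 counts) *Anaerostipes*. *Stomatobaculum* sequence 1 was held by 11 ASVs, of which 8 (21102 counts) are named *Stomatobaculum* and 3 (13404 counts) Lachnospiraceae_NK4A136-Clostridium XlVa. *Marvinbryantia* sequence 2 was held by 2 ASVs of that name and 2 named Lachnospiraceae_NA. In the whole table, 31 of 507 sequences (6.11%) had more than 1 genus name, and 3 of the 10 here did. Results are therefore given with the names as deposited and, where it matters, with each sequence given the name that holds most of its counts. With names unified in this way, *Anaerostipes* was present in 38 samples instead of 46, *Stomatobaculum* in 27 instead of 25 and *Coprococcus* in 57 instead of 56.

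**Figure D2:**
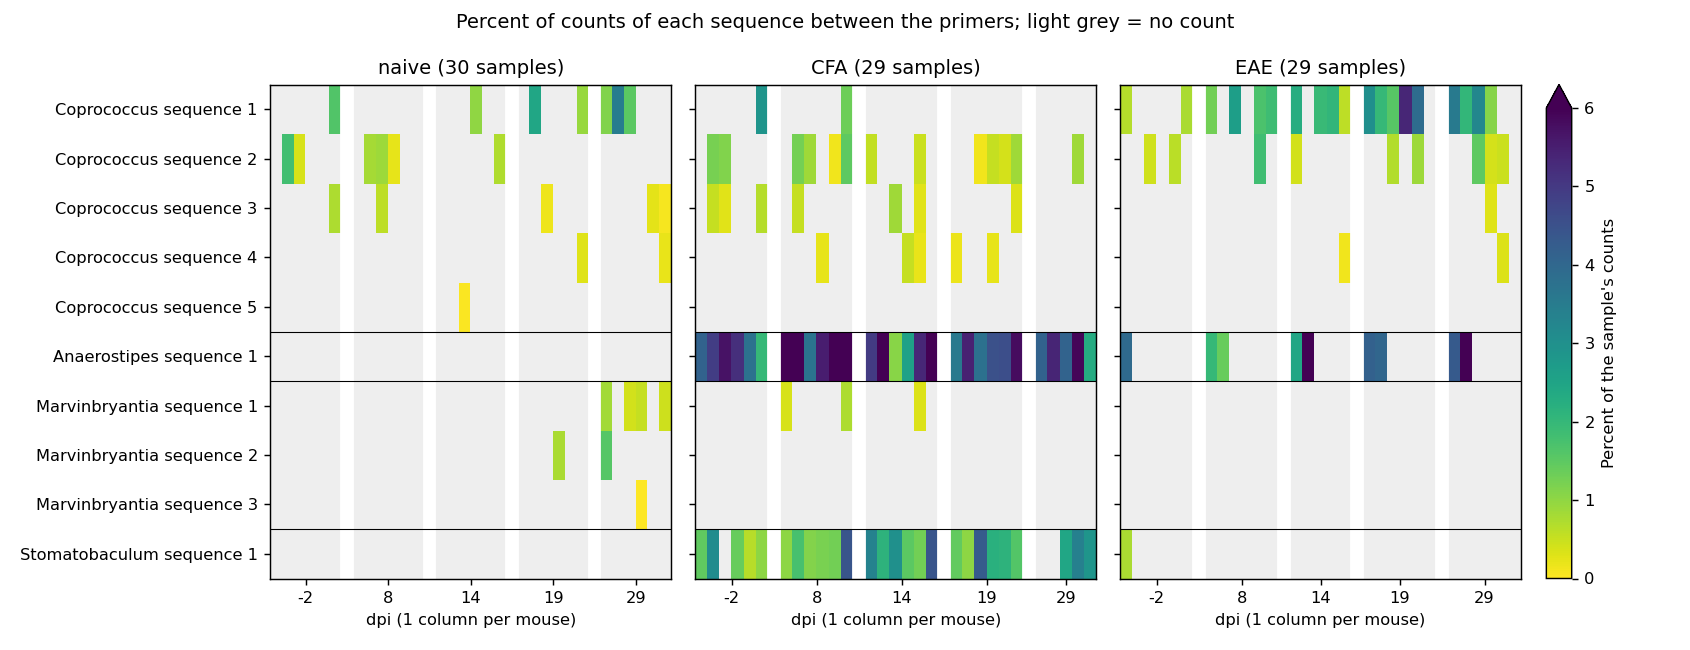
Percent of counts of each of the 10 sequences (rows) in every sample, 1 column per mouse within each day and treatment; colour gives the percent, with the darkest shade at 6% and above, and light grey stands for no count. *Anaerostipes* sequence 1 fills every CFA column and no naïve column, and *Coprococcus* sequence 1 appears in 19 of 29 EAE and 2 of 29 CFA columns.

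*Anaerostipes*, a butyrate producer that can use lactate, was the most abundant of the genera and was found in all 29 CFA samples. It was already there before immunization. At -2 dpi the 6 CFA mice held between 1.97% and 5.71% with a median of 4.52%, all 6 naïve mice were at 0, and EAE mouse 550 alone held 3.92%. Mean ± SD of CFA mice was 4.27% ± 1.34 before immunization (n = 6), then 6.62% ± 2.12, 4.79% ± 2.66 and 4.60% ± 0.880 on days 8, 14 and 19 (n = 6 each), and last 4.36% ± 1.40 on day 29 (n = 5). The lowest CFA value at any day was 1.07% (mouse 545 at 14 dpi) and the highest 9.84% (mouse 548 at 8 dpi).

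Naïve mice had no *Anaerostipes* at -2, 8 and 14 dpi. Mouse 559 held 0.872% and mouse 563 held 0.731% at 19 dpi, and mouse 558 held 1.13% and mouse 559 held 1.06% at 29 dpi. All of these naïve counts came from ASVs with *Coprococcus* sequence 1. *Anaerostipes* sequence 1 was in 0 of 30 naïve samples, 29 of 29 CFA samples and 9 of 29 EAE samples.

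*Anaerostipes* was higher in CFA than in naïve mice at -2, 8 and 14 dpi by edgeR, with adjusted p = 0.00190, 0.00108 and 0.00234. These were 3 of 8 calls of the 4 genera between CFA and naïve mice, where edgeR called 10.8% of all tests over the 5 days. By the exact permutation test, adjusted p from the first to the last day was 0.0703, 0.0352, 0.0469, 0.0352 and 0.0469 (5 of 20 tests of the genera passed with *Stomatobaculum* included, and 4.31% of all tests). CFA and naïve values did not overlap on any of the 5 days, where 3.08%, 6.15%, 4.62%, 6.15% and 9.23% of all genera did not overlap. At 19 and 29 dpi, where a few naïve mice had counts under this name, edgeR gave adjusted p = 0.246 and 0.423. With names unified by sequence, so that all naïve samples were at 0, edgeR gave 0.000748 and 0.00138 at these days.

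In EAE mice *Anaerostipes* sequence 1 followed single animals. At -2 dpi mouse 550 held 3.92% of it, and at 8 dpi mouse 550 held 1.98% and mouse 551 held 1.39%. At 14, 19 and 29 dpi it was found in mice 588 (2.45%, 4.13% and 4.31%) and 589 (6.22%, 4.01% and 7.14%) and in no other EAE mouse. By the sample table these are the same subjects as 550 and 551. The other EAE counts under the name *Anaerostipes* were *Coprococcus* sequence 1. They made up all of the 0.743% in mouse 553, 1.30% in mouse 556 and 0.505% in mouse 557 at 8 dpi and of the 0.881% in mouse 591 at 14 dpi, and the part above sequence 1 in mice 588 (5.90% in all) and 589 (4.74% in all) at 19 dpi.

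Between EAE and naïve mice, edgeR called *Anaerostipes* higher in EAE mice at -2 dpi (1 mouse of 6, adjusted p = 0.0225), 8 dpi (5 of 6, adjusted p = 0.0120) and 14 dpi (3 of 5, adjusted p = 0.00443). These were 3 of 4 calls of the genera in this comparison, where edgeR called 7.08% of all tests. None of the 20 exact permutation tests of the genera between EAE and naïve mice passed after adjustment, 4.92% of all genus tests did, and 2 of the 20 had an unadjusted p under 0.05, *Anaerostipes* at 8 dpi (p = 0.0152, adjusted p = 0.375) and *Coprococcus* at 19 dpi. The call at -2 dpi, before immunization, was lost without mouse 550 (edgeR adjusted p = 1) and without 4 other single samples (5 of 88). Between EAE and CFA mice, *Anaerostipes* means differed by -3.62 percentage points at -2 dpi and by -5.63 at 8 dpi, where the groups did not overlap (exact permutation test, p = 0.00216, adjusted p = 0.0703; 3.08% of all genera did not overlap there). The edgeR adjusted p was 0.719 and 0.404 at these days.

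*Stomatobaculum* was a genus of the CFA mice. It was in 24 of 29 CFA samples, in 0 of 30 naïve samples and in 1 of 29 EAE samples, that of mouse 550 at -2 dpi (0.765%). Mean ± SD of CFA mice was 0.789% ± 0.524 before immunization (n = 6), then 1.10% ± 0.545, 1.87% ± 1.32 and 0.899% ± 0.621 on days 8, 14 and 19 (n = 6 each), and 1.11% ± 1.20 on day 29 (n = 5). The highest value was 3.35% in mouse 543 at 14 dpi, and every CFA mouse held it on at least 3 days.

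Of the CFA samples without *Stomatobaculum*, mouse 547 at 14 dpi and mouse 548 at 19 dpi held the same sequence under the name Lachnospiraceae_NK4A136-Clostridium XlVa. With names unified, 26 of 29 CFA samples held it, and the others were mouse 545 at -2 dpi and mice 543 and 544 at 29 dpi. The CFA mean ± SD then became 1.27% ± 1.04 before immunization, 1.80% ± 1.31, 2.61% ± 1.20 and 2.11% ± 1.15 on days 8, 14 and 19 (n = 6 each) and 1.74% ± 1.62 on day 29 (n = 5). The shift was widest on day 19, where the name as deposited gave 0.899%.

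*Stomatobaculum* was higher in CFA than in naïve mice at all 5 days by edgeR, with adjusted p of 0.00745, 0.00402, 0.00406, 0.00855 and 0.00972 from -2 to 29 dpi. By the exact permutation test the difference passed at 8 dpi (p = 0.00216, adjusted p = 0.0352), where all 6 CFA mice held it, and adjusted p was between 0.0985 and 0.263 at the other days. With names unified it passed at 8, 14 and 19 dpi (adjusted p = 0.0341, 0.0341 and 0.0273; 5.08% of all tests passed). It was lower in EAE than in CFA mice at 8, 14, 19 and 29 dpi by edgeR (adjusted p = 0.00355, 0.00889, 0.00388 and 0.00586), which were 4 of 5 calls of the genera there, where edgeR called 12.3% of all tests. None of the 20 exact permutation tests of the genera between EAE and CFA mice passed with the names as deposited, 4.92% of all genus tests did, and 8 of the 20 had an unadjusted p under 0.05. With names unified 4 passed (6.67% of all tests), those of *Stomatobaculum* at 8, 14 and 19 dpi (adjusted p = 0.0455, 0.0303 and 0.0195) and of *Anaerostipes* at 8 dpi (adjusted p = 0.0455). At -2 dpi the mean was 0.128% in EAE and 0.789% in CFA mice (edgeR adjusted p = 0.719; exact permutation test, p = 0.0411, adjusted p = 0.535).

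*Stomatobaculum* sequence 1 never occurred without *Anaerostipes* sequence 1. Both were present in 27 samples, *Anaerostipes* sequence 1 alone in 11 and neither in 50. Over 88 samples the percents of these genera had a Spearman rho of 0.65, the highest of any genus with either. The same 6 CFA mice contribute most of these samples, so the value is a description and carries no test.

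**Figure D3:**
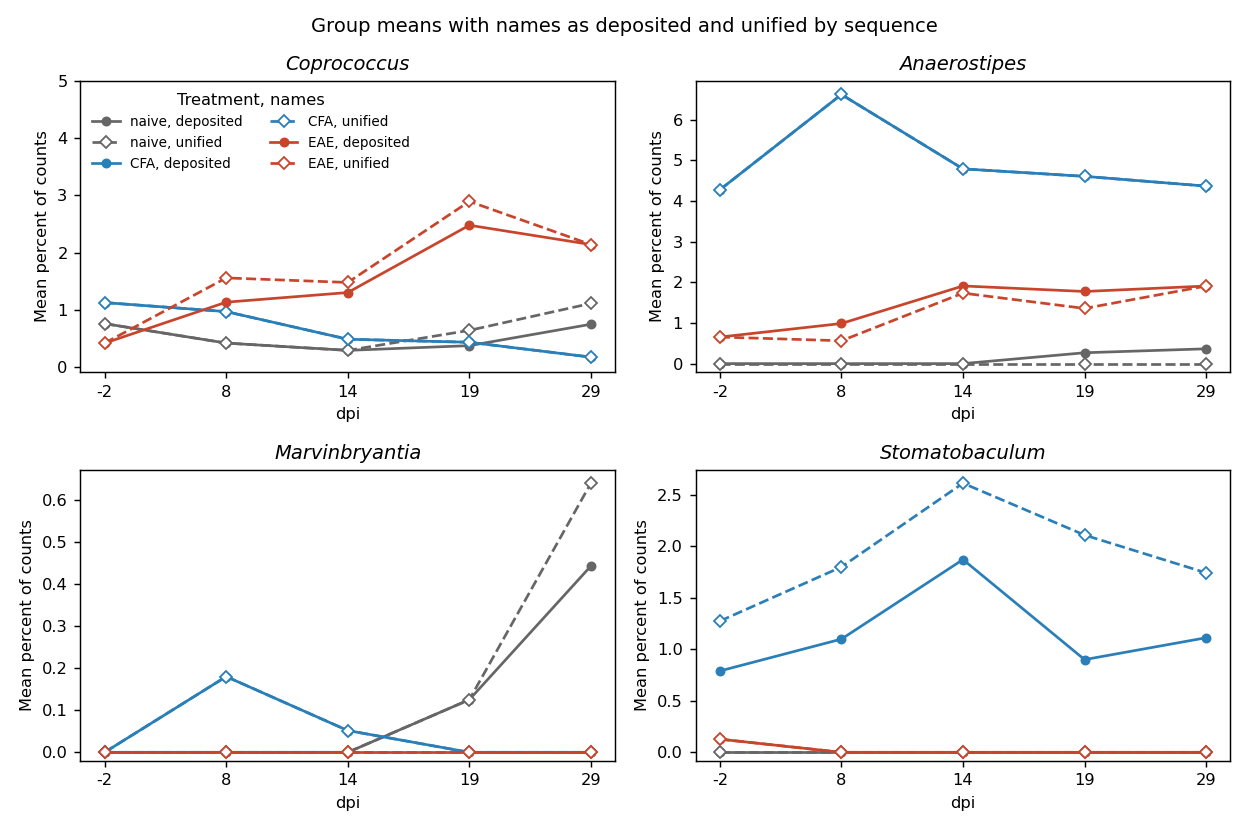
Mean percent of counts by day for each genus and treatment, with names as deposited (filled points, solid lines) and with names unified by sequence (open points, dashed lines). Unifying the names removed *Anaerostipes* from naïve mice and raised *Stomatobaculum* in CFA mice at all 5 days. It raised *Coprococcus* in EAE mice at 8, 14 and 19 dpi and in naïve mice at 19 and 29 dpi.

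*Coprococcus*, a genus of butyrate producers, was found in all treatments, in 16 of 30 naïve, 18 of 29 CFA and 22 of 29 EAE samples. Mean ± SD of EAE mice was 0.415% ± 0.338 before immunization and 1.13% ± 0.946 on day 8 (n = 6 each), 1.30% ± 1.07 on day 14 (n = 5), and 2.48% ± 2.14 and 2.14% ± 1.73 on days 19 and 29 (n = 6 each). At 19 dpi mice 593 and 594 held 5.37% and 4.77%, and mice 588, 589 and 591 held 1.24%, 1.24% and 2.25%. Mouse 595 was at 0, in a sample with 25 ASVs and 15279 counts. Naïve means lay between 0.289% and 0.757% at the 5 days with names as deposited, and those at 19 and 29 dpi were higher with names unified. In CFA mice the mean was 1.12% ± 1.43 before immunization (SD, n = 6) and 0.171% ± 0.381 on day 29 (SD, n = 5), when only mouse 546 (0.853%) had counts.

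No comparison of *Coprococcus* between treatments passed at any day. The edgeR adjusted p on day 19 was 0.848 for EAE against naïve mice and 0.780 for EAE against CFA mice, where the means differed by 2.11 and 2.05 percentage points (exact permutation test, p = 0.0411, adjusted p = 0.243, and p = 0.0325, adjusted p = 0.176). The lowest edgeR adjusted p over the 15 comparisons was 0.453, between EAE and CFA mice at 29 dpi.

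Because samples of a mouse on several days are not independent, each mouse was also averaged over 14, 19 and 29 dpi, a choice made after seeing the data. *Coprococcus* then had means of 2.06% ± 1.13 (SD, n = 6) in EAE, 0.469% ± 0.475 (SD, n = 6) in naïve and 0.384% ± 0.253 (SD, n = 6) in CFA mice. EAE means ran from 0.239% (mouse 595) to 3.06% (mouse 593), and the highest naïve mouse had 1.32% and the highest CFA mouse 0.712%. Unifying names raised some mice of both EAE and naïve treatments. Naïve mouse 559 then held 2.44% and 3.46% at 19 and 29 dpi instead of 1.57% and 2.41%, and the mean of EAE mouse 588 was 3.07% instead of 2.48%. With names as deposited, the differences did not pass after adjustment over 65 genera, of which 13.8% passed between EAE and naïve mice (exact permutation tests, p = 0.0216, adjusted p = 0.108 against naïve mice, and p = 0.0130, adjusted p = 0.0563 against CFA mice). In the same means *Stomatobaculum* was at 0 in EAE mice and 1.29% ± 0.392 (SD, n = 6) in CFA mice (adjusted p = 0.0117, exact permutation test; 20.0% of all genera passed between EAE and CFA mice). Against naïve mice, CFA mice were higher in *Stomatobaculum* and *Anaerostipes* (adjusted p = 0.0201 for each, exact permutation test; 12.3% of all genera passed).

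The sequences within *Coprococcus* were spread unequally. *Coprococcus* sequence 1 was in 19 of 29 EAE, 7 of 30 naïve and 2 of 29 CFA samples, both of CFA mouse 548 (2.90% at -2 dpi and 1.32% at 8 dpi). At -2 dpi it was in EAE mice 550 (0.657%) and 557 (0.767%), and on day 8 in 4 EAE mice, with 1.29% to 2.65%. On days 14, 19 and 29 it was held by 4 of 5, 5 of 6 and 4 of 6 EAE mice. Averaged over 14, 19 and 29 dpi it was above 0 in all 6 EAE mice (0.195% to 2.93%) and at 0 in all 6 CFA mice (exact permutation test, p = 0.00216, adjusted p = 0.0273 over 202 sequences). This was 1 of 2 member sequences that passed there, where 7.92% of sequences passed. Against naïve mice, of which 5 of 6 held it at some later day, the difference of 1.33 percentage points did not pass (p = 0.0390, adjusted p = 0.291, exact permutation test; 4.46% of sequences passed). By day, edgeR over 202 sequences called sequence 1 in 5 of 15 comparisons. It was higher in EAE than in naïve mice at 8 dpi (adjusted p = 0.0494; 9.9% of all sequence tests called between these treatments over the 5 days), higher in EAE than in CFA mice at 14 and 19 dpi (0.0274 and 0.0215; 6.73% called), and lower in CFA than in naïve mice at 14 and 19 dpi (0.0421 and 0.0394; 6.63% called). None of 105 exact permutation tests of the member sequences by day passed after adjustment over all sequences. By exact permutation test, 2 (EAE against naïve), 9 (EAE against CFA) and 9 (CFA against naïve) had an unadjusted p under 0.05. Of all sequence tests, 0.0%, 0.891% and 0.0% passed in the same order. Over 202 sequences, the lowest p an exact permutation test can reach passes only where many sequences of a comparison reach it. *Anaerostipes* sequence 1 did not overlap between CFA and naïve mice on any of the 5 days and still did not pass. These failures therefore say little about a difference.

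*Coprococcus* sequence 2 was in 13 CFA, 9 EAE and 6 naïve samples, and edgeR called it in 2 of 15 comparisons. It was higher in EAE than in naïve mice on day 29 (0.394% against 0, adjusted p = 0.0418), where edgeR called 35.6% of all sequences. It was higher in CFA than in naïve mice on day 19 (0.314% against 0, adjusted p = 0.0434), where edgeR called 12.9%. The exact permutation test passed neither (adjusted p = 0.918 and 1.00). *Coprococcus* sequences 3 and 4 were in 13 and 9 samples in all, with no call by edgeR in 15 comparisons each.

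**Figure D4:**
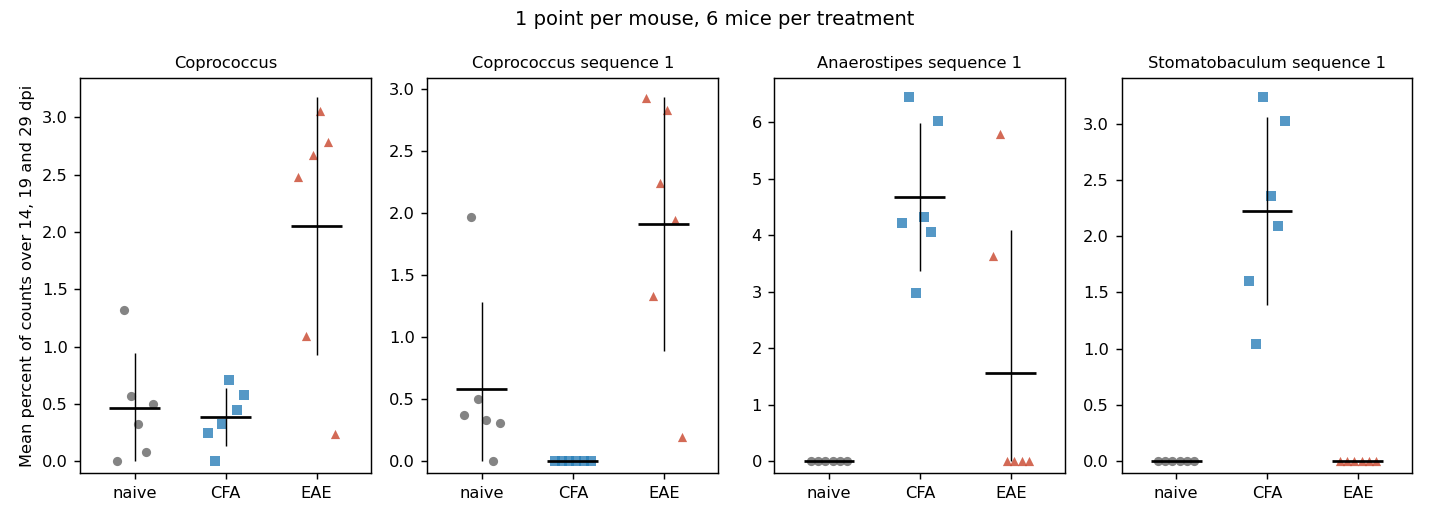
Mean percent of counts of each mouse over 14, 19 and 29 dpi (y axis), 6 mice per treatment, for *Coprococcus* as deposited and for the leading sequence of *Coprococcus*, *Anaerostipes* and *Stomatobaculum*; horizontal bars are means and vertical lines 1 SD, cut at 0. *Coprococcus* sequence 1 lies at 0 in all 6 CFA mice, and *Stomatobaculum* sequence 1 lies at 0 in all 6 naïve and all 6 EAE mice.

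The genus named *Coprococcus*/Eubacterium_F in the taxonomy is kept apart here, since the rule takes the name *Coprococcus* alone. Its most abundant sequence was 97.5% identical to *Coprococcus* sequence 1, closer than any other *Coprococcus* sequence (at most 94.0%). Its means were 2.27% in naïve, 0.614% in CFA and 1.31% in EAE mice before immunization, and 0.320%, 0.440% and 0.945% in the same order on day 19. Percents are also shares of what else is present. *Lactobacillus*, the leading genus of naïve mice, averaged 22.7% to 34.1% in naïve mice by day and 1.14% to 2.61% in EAE mice at 14, 19 and 29 dpi, and its part in the *Coprococcus* percents was not tested.

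*Marvinbryantia* was the rarest of the genera, with counts in 8 samples and in none of the 29 EAE samples. Of naïve mice, 561 held 0.750% at 19 dpi, and 558, 560, 561 and 563 held 1.25%, 0.407%, 0.533% and 0.462% at 29 dpi. Of CFA mice, 543 and 548 held 0.352% and 0.728% at 8 dpi and 547 held 0.310% at 14 dpi. No mouse other than naïve 561 had it on more than 1 day. By edgeR it was lower in EAE than in naïve mice at 29 dpi (adjusted p = 0.0462) and lower in EAE than in CFA mice at 8 dpi (adjusted p = 0.0443). The first compares 4 of 6 naïve mice with none of 6 (exact permutation test, p = 0.0606, adjusted p = 0.328) and the second 2 of 6 CFA mice with none (p = 0.455, adjusted p = 0.821, exact permutation test). Both edgeR calls were lost with total counts in place of TMMwsp factors (adjusted p = 0.0599 and 0.0597), and on leaving out 12 and 11 of the 88 samples in turn, with adjusted p up to 0.0844 and 0.0760.

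Changes since -2 dpi were tested with edgeR within each treatment. In naïve mice *Anaerostipes* rose at 19 and 29 dpi (adjusted p = 0.0374 and 0.0323), from none of 6 mice to 2 of 6 at each day; edgeR called 2 of 16 tests of the genera there and 1.54% of all tests. These counts are *Coprococcus* sequence 1, so with names unified there was no *Anaerostipes* to compare, and with the mouse as a replicate block adjusted p was 0.470 and 0.419. In CFA mice none of 16 edgeR tests of the genera passed (2.31% of all tests called), 2 had an unadjusted p under 0.05 and DESeq2 called 2. In EAE mice *Stomatobaculum* fell at 8, 14, 19 and 29 dpi (adjusted p = 0.0441, 0.0458, 0.0268 and 0.0218), 4 of 16 tests of the genera, where edgeR called 5.38% of all tests. All 4 rest on the 0.765% of mouse 550 at -2 dpi, and without that sample no EAE sample held the genus. With the subject number of the sample table as a replicate block, adjusted p for these 4 days was between 0.514 and 0.711.

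The change since -2 dpi was also compared between treatments. *Stomatobaculum* changed differently in EAE than in CFA mice at 8, 14 and 19 dpi by edgeR (adjusted p = 0.0357, 0.0460 and 0.0240; 3 of 16 tests of the genera, and 9.62% of all tests called). Without mouse 550 at -2 dpi, adjusted p was above 0.99 at each of these days. *Anaerostipes* changed differently in EAE than in naïve mice at 29 dpi (adjusted p = 0.0469; 1 of 16 tests, and 7.31% of all tests called), and the call was lost with names unified and without mouse 550 (adjusted p = 1.00 in both). Between CFA and naïve mice none of 16 tests of the genera passed by edgeR (1.54% of all tests called), with 2 at an unadjusted p under 0.05 and 2 calls by DESeq2. Where naïve mice were at 0 on both days, as for *Stomatobaculum* throughout and *Anaerostipes* at 8 and 14 dpi, a difference in change from naïve mice could not be estimated and such tests could not pass. The same holds for *Marvinbryantia* in every comparison of changes between treatments, since it was at 0 in all of them at -2 dpi (p above 0.99 each time by edgeR). Such tests say nothing of a change after immunization, though they are counted in the numbers of tests above.

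Together, the 4 genera held 6.19% ± 1.33 (SD, n = 6) of counts in CFA mice at -2 dpi, against 0.757% ± 1.05 (SD, n = 6) in naïve and 1.20% ± 2.06 (SD, n = 6) in EAE mice. In EAE mice their sum had a mean ± SD of 4.25% ± 2.64 on day 19 and 4.05% ± 3.82 on day 29 (n = 6 each). As a share of all Lachnospiraceae counts they made up 30.3% in CFA, 3.23% in naïve and 6.75% in EAE mice before immunization, and 32.8%, 3.05% and 21.7% in the same order on day 19. The whole family held 21.7%, 18.0% and 17.5% of counts in CFA, naïve and EAE mice at -2 dpi.

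Of the 19 other genera of Lachnospiraceae, 17 were tested, and edgeR called 11 of their 255 tests between treatments (4.31%; 4 higher and 7 lower). None of these calls was between EAE and naïve mice. The genera called most often were Lachnospiraceae_UCG-001, called lower in CFA than in naïve mice at 8 and 14 dpi and higher in EAE than in CFA mice at 8 dpi, and Anaerotignum-Clostridium XlVb, called higher in CFA than in naïve mice at 8 dpi (adjusted p = 0.0408) and lower in EAE than in CFA mice at 8 and 14 dpi (adjusted p = 0.0368 and 0.0411). A list of other producers of short-chain fatty acids had 11 genera in the taxonomy, all tested, with 15 calls in 165 tests (9.09%; 7 higher in EAE than in CFA mice and 8 lower in CFA than in naïve mice). Of these calls, 10 were of *Akkermansia*, a mucin degrader that was at 0 in CFA mice at all 5 days. Between CFA and naïve mice the median difference by day was -0.136 to 0.469 percentage points over the other Lachnospiraceae and -0.640 to 0.467 over the producers, against -0.00579 to 0.0663 over all 65 genera.

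The genera with the most similar pattern to these over 88 samples, at a Spearman rho of at least 0.40 among 53 genera compared, were Acutalibacter for *Coprococcus* (rho = 0.46), and *Roseburia* (rho = 0.49) and Neglecta (rho = 0.44) for *Stomatobaculum* beside *Anaerostipes*. No genus other than *Stomatobaculum* reached this for *Anaerostipes*. The samples share mice and days, and these values describe the table only.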

How the data were processed

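16S rRNA amplicons (V3 and V4, MiSeq) of mouse feces were deposited by the authors as a table of read counts per ASV and sample, with a taxonomy and the ASV sequences. Counts were summed by the genus name of the deposited taxonomy. The table lists 89 samples. CFA mouse 548 has no counts on day 29 and was excluded, and 2 water controls were not analysed here. Groups came from the labels. The 4 genera and all lists were chosen with earlier results of these data known.

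edgeR 4.0.16 (R 4.3.3; quasi-likelihood test, TMMwsp factors) was fitted to 15 groups of treatment and day at once, over genera with counts in at least 3 samples, with Benjamini-Hochberg adjustment in each contrast. Exact permutation tests of mean percents went through all splits of the mice with numpy. Fisher's exact tests of presence used SciPy 1.17.1, and DESeq2 1.42.0 was an alternative. Other alternatives were other factors, no filter, rarefaction to 9202 counts, fits of the contrast's groups alone, replicate blocks and each sample left out. Names unified by sequence, samples with fewer than 30 ASVs left out and means per mouse were added after seeing the data. Tables used Python 3.11.15, numpy 2.4.6 and pandas 2.3.3, plots matplotlib 3.10.9 and identities Biopython 1.88. The statistics were tested on simulated data, but no error rate is given here for calls against a group without counts.

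Days were not blocked by mouse in the main design. Naïve and CFA mice kept their numbers over the days, and the sample table gives the EAE mice subject numbers, which differ from the labels in 17 samples. Deviations from group means had a median correlation of 0.0462 over 138 pairs of samples of the same mouse and -0.00521 over 690 pairs of different mice. These were taken across all genera with counts in at least 3 samples, so they do not measure how alike the days of a mouse were for a single genus. *Anaerostipes* sequence 1, for example, stayed in EAE mice 588 and 589 on all 3 later days and was in no other EAE mouse then. Member sequences were named by genus and rank of counts. Other genera were named where they were among the most often called of the lists (at most 3 per list), or had a Spearman rho of at least 0.4 with a member (at most 3 per member), among genera with counts in at least 10 samples. *Lactobacillus* and *Coprococcus*/Eubacterium_F were added after their values were seen. Mice shared cages, so p-values measure the spread between mice that may not be independent.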

Additional observations from a re-analysis of the deposited data

Results flagged for a closer look

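Of 37 groups of treatment and day with any count of a genus, 6 had a single sample far from the others, a gap that chance gives in about 1 in 20 groups of continuous values. That rate does not carry over to groups whose other samples are all at 0. In 5 of the 6 the sample was the only one of its group with the genus: *Anaerostipes* (3.92%) and *Stomatobaculum* (0.765%) in EAE mouse 550 at -2 dpi, *Marvinbryantia* in naïve mouse 561 at 19 dpi (0.750%) and in CFA mouse 547 at 14 dpi (0.310%), and *Coprococcus* in CFA mouse 546 at 29 dpi (0.853%). The sixth was *Coprococcus* in naïve mouse 559 at 19 dpi (1.57%), with the next naïve mouse at 0.508%.

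The change since -2 dpi differed between treatments by edgeR for *Anaerostipes* at 29 dpi between EAE and naïve mice (adjusted p = 0.0469) and for *Stomatobaculum* between EAE and CFA mice at 8 dpi (adjusted p = 0.0357), 14 dpi (adjusted p = 0.0460) and 19 dpi (adjusted p = 0.0240). Each of these involved mouse 550 at -2 dpi and was lost without that sample.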

How the results depend on the processing

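Of 27 single calls of the genera, 25 were lost or reversed under at least 1 alternative. The others were *Anaerostipes* and *Stomatobaculum* between CFA and naïve mice at 8 dpi. No single sample left out ended a call of these genera between CFA and naïve mice, or of *Stomatobaculum* between EAE and CFA mice. Calls between EAE and naïve mice (4) became 7 with names unified, 2 in a fit of the contrast's groups alone, and 0 by the exact permutation test, by that test with names unified and by Fisher's exact test. Those between EAE and CFA mice (5) became 0 by the permutation and 0 by Fisher's test, and those between CFA and naïve mice (8) became 5 and 2. Changes since -2 dpi in naïve mice (2) became 4 by DESeq2 and 0 with names unified, in the contrast's groups alone and rarefied. In CFA mice (0) DESeq2 gave 2. In EAE mice (4) the contrast's groups alone gave 0, rarefaction 2 and total counts 2. Differences in change between EAE and naïve mice (1) became 7 by DESeq2, 2 without the filter and 0 with TMM, names unified, the contrast's groups alone, rarefaction or total counts. Between CFA and naïve mice (0) they became 2 by DESeq2, without the filter and in the contrast's groups alone, and 1 with total counts. Calls of sequences (27) became 2 with ASVs not merged, 56 by DESeq2 and 0 by the permutation test. The permutation test could pass a sequence only where many sequences reached its lowest p. The causes were not tested.

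With the mouse number as a replicate block, the calls of change in naïve mice became 0, those in CFA mice stayed 0, and the 1 in EAE mice at 8 dpi became 0. With the subject number as a replicate block they became 0 in naïve and 1 in EAE mice (*Anaerostipes* at 8 dpi, adjusted p = 0.0206), and the differences in change became 0 between EAE and naïve mice and 1 between EAE and CFA mice (*Anaerostipes* at 8 dpi, adjusted p = 0.0214).

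With each sample left out in turn, calls ranged from 8 to 9 between CFA and naïve, 4 to 7 between EAE and CFA and 3 to 5 between EAE and naïve mice. Changes ranged from 0 to 0 in CFA, 3 to 4 in EAE and 0 to 2 in naïve mice, and differences in change from 0 to 2 for CFA against naïve, 1 to 4 for EAE against CFA and 0 to 2 for EAE against naïve. These ranges count calls and do not say that the same calls were kept. Without mouse 550 at -2 dpi all 4 changes of *Stomatobaculum* in EAE mice were lost, so the calls of change counted in that fit were of other genera. Means per mouse gave 2 to 2, 1 to 2 and 0 to 1 calls. The lowest adjusted p over these single samples was 0.0142 for *Anaerostipes* between EAE and naïve mice at -2 dpi, 0.0310, 0.0305, 0.0219 and 0.0169 for the changes of *Stomatobaculum* in EAE mice, and 0.0291 for the difference in change of *Anaerostipes*. With names unified, the changes of *Anaerostipes* in naïve mice at 19 and 29 dpi had adjusted p = 1.0 and its difference in change between EAE and naïve mice 0.999856. Without mouse 550 at -2 dpi that difference had 0.999862, *Anaerostipes* between EAE and naïve mice at -2 dpi 1.0, and the changes of *Stomatobaculum* in EAE mice at 8, 14, 19 and 29 dpi 1.0. By counting error alone, totals limit presence to shares above at most 0.0326%, and the number of mice limits the rest.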
